A study of Zea mays with 11 samples.

Results

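PAM1, named after the plural abnormalities of meiosis seen in its mutants, carries an RNA recognition motif, and the study pulled the protein down from maize anthers to ask which RNAs it contacts. Native RNA immunoprecipitation (RIP) recovers the RNA held by a protein without crosslinking, and the sequenced RNA is placed on the genome, where stretches with more reads in the antibody samples than in the control are called as peaks. The regions described here are the peaks that lie in the middle of a chromosome: those on chromosomes 1 to 10 whose midpoint falls between 0.25 and 0.75 of the chromosome's length in the B73 v4 assembly. This position rule gave 245 peaks out of 711 in the list. Of the others, 457 lay in the outer parts of the same chromosomes, which together have the same length as the interior, and 9 lay on unplaced contigs or on the mitochondrial genome.

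The samples were 3 anti-PAM1 immunoprecipitates and 2 IgG immunoprecipitates, IgG being the nonspecific antibody control. All came from wild-type anthers of the maize inbred line A344 at prophase I, the stage of meiosis at which homologous chromosomes pair and recombine. The 5 samples were combined into a single list, so no peak has a value per sample, and the spread between replicates and the depth of each sample are unknown. A344 is 1 inbred line and its reads were placed on the genome of another, B73. No test between the middle and outer peaks could be made over samples. The intervals given below are at 95%, cover counting error only and treat each peak as a separate count, including peaks that lie close together.

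Maize chromosomes carry their centromeres and the surrounding heterochromatin towards the interior. As background, these interior regions are rich in transposable elements and poor in genes and in meiotic crossovers, and genes become denser towards the chromosome ends. RIP reads are made from RNA, and how much RNA the anther makes at each position, which also bears on where peaks can be called, was not measured in the list. Centromere positions and gene models of B73 v4 were not used here, so no peak below is assigned to a gene or to a named chromatin domain.

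Peaks were sparser in the chromosome interior than in the outer parts, although both cover the same length. The interior held 0.233 peaks per Mb (exact Poisson interval 0.204 to 0.264), and the outer parts held 0.434 peaks per Mb (0.395 to 0.476). The density ratio of middle over outer was 0.536 (exact interval 0.457 to 0.627). Middle peaks made up 34.9% of the 702 chromosomal peaks (exact binomial interval 31.4% to 38.6%). Their combined width was 48478 bp, against 87119 bp for the outer peaks.

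Within the interior the peaks were unevenly spread, with 92 before the chromosome midpoint and 153 after it. Counted in bins of 5% of chromosome length over all 10 chromosomes, the numbers from 0.25 to 0.5 were 18, 20, 19, 13 and 22. From 0.5 to 0.75 they were 22, 26, 26, 30 and 49. The bin from 0.4 to 0.45 was the emptiest of the 20 bins along the whole chromosome, and the bin from 0.7 to 0.75 held as many peaks as the outer bin from 0.1 to 0.15. The side after the midpoint was the fuller one on 8 of the 10 chromosomes, the exceptions being chromosome 5 (14 before the midpoint and 5 after) and chromosome 10 (8 and 5). The outer parts were also uneven, with 194 peaks before the interior and 263 after it.

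**Figure D1:**
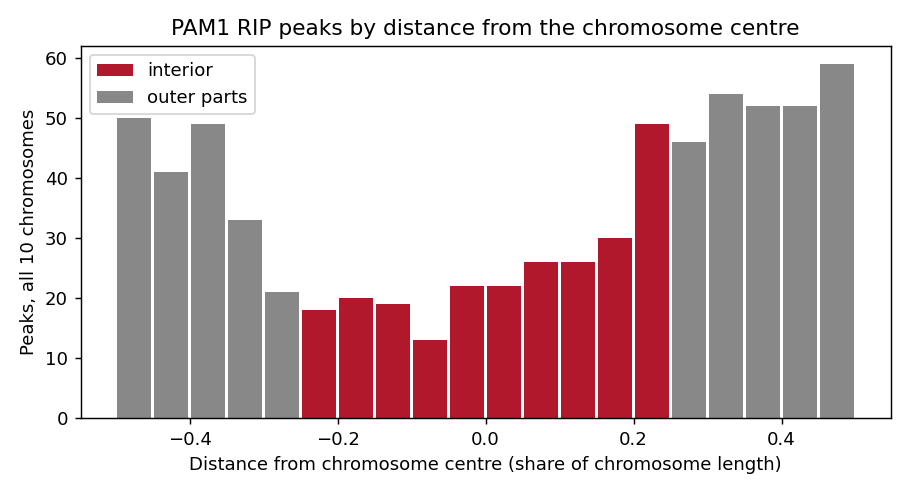
Number of peaks in 20 bins of equal relative length, summed over chromosomes 1 to 10, against the distance from the chromosome centre as a share of chromosome length. Red bars are the interior and grey bars the outer parts; the red bars run between 13 and 49 peaks, with the tallest at the right-hand limit.

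Every chromosome had fewer peaks per Mb in its interior than in its outer parts (10 of 10). The size of the difference varied. Chromosome 7 had the lowest ratio of middle over outer density, 0.275, with 14 middle peaks and 51 outer peaks. Chromosomes 5 and 9 followed at 0.365 (19 and 52 peaks) and 0.378 (14 and 37 peaks). Chromosome 6 had the highest ratio, 0.771, with 27 middle peaks and 35 outer peaks, next to chromosome 1 at 0.738 (48 and 65 peaks) and chromosome 3 at 0.736 (39 and 53 peaks). Chromosome 8 lay at 0.667 (24 and 36 peaks), chromosome 4 at 0.490 (24 and 49 peaks), chromosome 2 at 0.469 (23 and 49 peaks) and chromosome 10 at 0.433 (13 and 30 peaks). The Poisson intervals of the densities were apart on 5 chromosomes (2, 4, 5, 7 and 9) and overlapped on the other five.

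**Figure D2:**
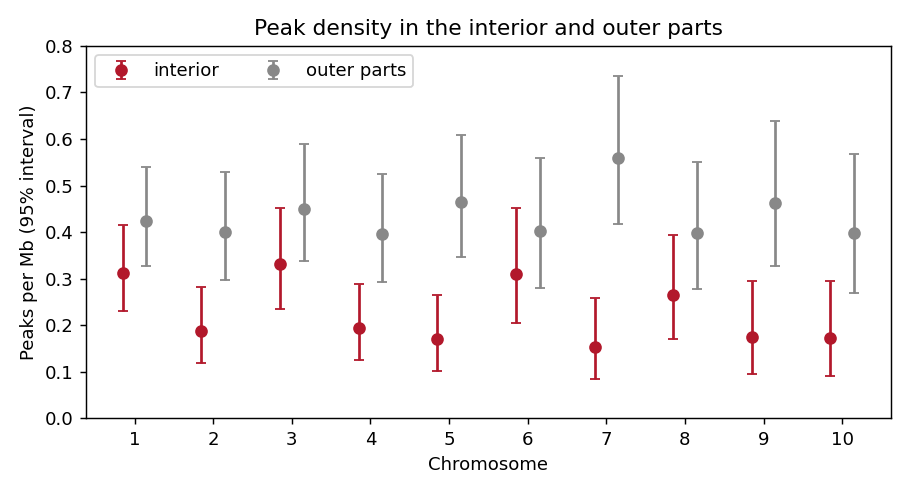
Peaks per Mb in the interior (red) and in the outer parts (grey) of each chromosome, with exact 95% Poisson intervals as error bars. The interior is the lower of the pair on all 10 chromosomes, from 0.154 peaks per Mb on chromosome 7 to 0.331 on chromosome 3.

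The interior also held the longest stretches without any peak. On 8 of the 10 chromosomes the longest gap between neighbouring peaks lay wholly inside the interior, and on chromosome 10 it crossed the upper limit of the interior. The exception was chromosome 8, whose longest gap, 19.8 Mb, lay before the interior. The longest of all was on chromosome 2, where no peak was called for 31.3 Mb between chr2:73920699-73920868 (fold enrichment 3.94) and chr2:105172028-105172198 (fold enrichment 4.93). Chromosome 7 had a gap of 23.0 Mb and chromosome 9 one of 21.8 Mb. Chromosome 5 had one of 21.6 Mb and chromosome 6 one of 20.5 Mb. The gaps measured 18.5 Mb on chromosome 1, 17.7 Mb on chromosome 4, 16.3 Mb on chromosome 10 and 15.8 Mb on chromosome 3. Sparser peaks leave longer gaps, and the interior is unbroken while the outer parts lie at both chromosome ends. The place of the longest gaps therefore follows in part from the counts above and from the position rule.

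**Figure D3:**
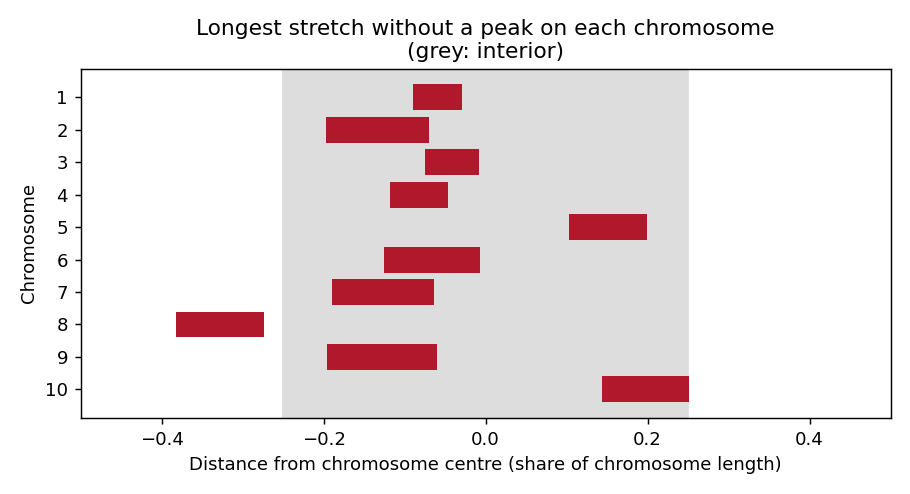
The longest stretch without a peak on each chromosome (red bar), placed by distance from the chromosome centre as a share of chromosome length, with the interior shaded grey. The bars of 8 chromosomes lie inside the shaded part, that of chromosome 10 ends just past its limit, and that of chromosome 8 lies to its left.

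Single peaks in the interior stood farther from other peaks. The median distance of a middle peak to the nearest peak on its chromosome was 1.11 Mb (95% order-statistic interval 0.927 to 1.32), against 0.737 Mb (0.639 to 0.846) for outer peaks. The most isolated middle peak, chr7:56536747-56536916, was 16.4 Mb from its nearest neighbour, against 7.05 Mb for the most isolated outer peak. In all, 28 middle peaks (11.4%, 7.73% to 16.1%) and 9 outer peaks (1.97%, 0.904% to 3.71%) were more than 5 Mb from any other. A lower density gives longer distances, so these values follow in part from the counts above.

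The medians of peak strength were the same in both parts, through shared values described below, while the upper quartiles were lower in the middle. Fold enrichment is the caller's ratio of anti-PAM1 signal over a control level, the control being IgG by the name of the list. How that level was set at each peak is not stated. The −log10 q is the significance after correction, and both are the authors' own values from the combined samples. The median fold enrichment was 3.94 in the middle and 3.94 in the outer peaks, and the quartiles were 3.87 and 4.89 in the middle and 3.91 and 4.93 outside. The range was 2.90 to 8.32 in the middle and 2.54 to 9.69 outside. The median −log10 q was 3.88 in both, with an upper quartile of 4.48 in the middle and 5.22 outside. The share of peaks with a fold enrichment of at least 5 was 16.7% in the middle (41 peaks, 12.3% to 22.0%) and 22.5% outside (103 peaks, 18.8% to 26.6%), with overlapping intervals. By chromosome, the middle median fold was lower on 5 chromosomes and equal on 5. The lower ones included 3.91 on chromosome 5 and 3.93 on chromosome 9, each against 3.94 outside. On chromosomes 3, 6 and 10 the middle median was 3.94, against 4.50, 4.35 and 4.57 outside.

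Many peaks carried identical values, which is why the medians coincide. A fold enrichment of 3.94 with a −log10 q of 3.88 was shared by 73 middle peaks (29.8%) and 126 outer peaks (27.6%). The 5 commonest combinations in the list covered 157 middle peaks (64.1%, 57.7% to 70.1%) and 266 outer peaks (58.2%, 53.5% to 62.8%). Only 54 distinct combinations occurred among the 245 middle peaks, and 33 of those combinations belonged to a single peak. Differences between peaks on the same combination cannot be ranked from the list. The 5 commonest combinations had folds of 2.96, 3.87, 3.91, 3.94 and 4.93. The list gives no read count per peak, so whether the shared values stand for few reads was not tested.

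Among the strongest peaks, the share from the middle lay below its share of the whole at every limit used, with wide intervals. Of the 52 chromosomal peaks with a −log10 q of at least 6.64, 13 were middle peaks (25%, exact interval 14.03% to 38.9%), beside 34.9% of all chromosomal peaks. Of the 51 with a fold enrichment of at least 6.30, 15 were middle peaks (29.4%, 17.5% to 43.8%). At lower limits the share was 28.9% of 128 peaks by −log10 q (21.2% to 37.6%) and 28.4% of 102 by fold (19.9% to 38.2%). Among the top 10 it was 30% by −log10 q (6.67% to 65.2%) and 20% by fold (2.52% to 55.6%). Width, which is not a measure of strength, went the other way. Of the 51 that were at least 288 bp wide, 21 were middle peaks (41.2%, 27.6% to 55.8%). Each of these intervals holds the overall share.

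The most significant middle peak was chr3:146709527-146709700, at a −log10 q of 15.2 with a fold enrichment of only 3.42. A pair of peaks, chr4:152832804-152833120 and chr8:132736604-132736785, came next with the same values, a −log10 q of 10.04 and a fold enrichment of 6.90. They were followed by chr3:171424694-171425266 (−log10 q 9.95, fold 5.25), chr7:82859065-82859374 (9.03, fold 6.85), chr1:193250120-193250331 (8.85, fold 8.27) and chr9:80088718-80088951 (7.95, fold 6.78). Then 3 peaks shared a −log10 q of 7.84 and a fold of 5.92, namely chr1:88016306-88016501, chr3:156523279-156523534 and chr10:74515321-74515541. The 10 peaks came from 7 chromosomes and were spread over the interior, from 0.287 to 0.733 of chromosome length. Of the other three chromosomes, the strongest middle peak was chr2:167097585-167097789 (6.04, fold 7.33) on chromosome 2 and chr5:135066483-135066655 (6.17, fold 5.81) on chromosome 5. On chromosome 6, chr6:101160815-101161016 and chr6:128246618-128246880 shared the highest values, a −log10 q of 5.82 and a fold of 4.93.

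The highest fold enrichments belonged mostly to other peaks. They were 8.32 at chr10:74791046-74791287, 8.27 at chr1:193250120-193250331 and 7.33 at chr2:167097585-167097789. A fold of 7.27 was shared by chr7:126098627-126098835 and chr8:85449190-85449401. The chromosome 10 peak lay 275504 bp from chr10:74515321-74515541, so the middle of that chromosome, at 0.494 and 0.495 of its length, held a pair of strong peaks among only 13. Fold enrichment and −log10 q rose together across the middle peaks (Spearman's rho 0.75 over 245 peaks, a description without a test, since both values come from the same reads). The outer peaks gave a rho of 0.80 for the same relation.

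In the direction of a low fold with a high −log10 q, few middle peaks departed from that relation. These were all on chromosome 3, most of them in a single group of neighbouring peaks. Departures the other way, a high fold with a low −log10 q, were not counted and lay on other chromosomes too. Examples were chr5:70824355-70824524 (fold 4.81, −log10 q 2.12) and chr4:172100133-172100421 (4.85 and 2.15). With the limits set after the values were seen, 7 middle peaks (2.86%, 1.16% to 5.80%) had a fold enrichment below the list median of 3.94 and a −log10 q above the list median of 3.88. All 7 were on chromosome 3. They were chr3:146709527-146709700 and 6 peaks near 0.727 of the chromosome's length. Some met a limit only narrowly, such as chr3:171280665-171281165 (−log10 q 3.90) and chr3:171279635-171279821 (fold 3.93). Only 2 outer peaks (0.438%, 0.0530% to 1.57%) met the same limits, chr9:20238247-20238435 and chr9:20383652-20383825, which lay 145216 bp apart. The intervals of the shares overlap, and they count peaks of the same group separately.

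**Figure D4:**
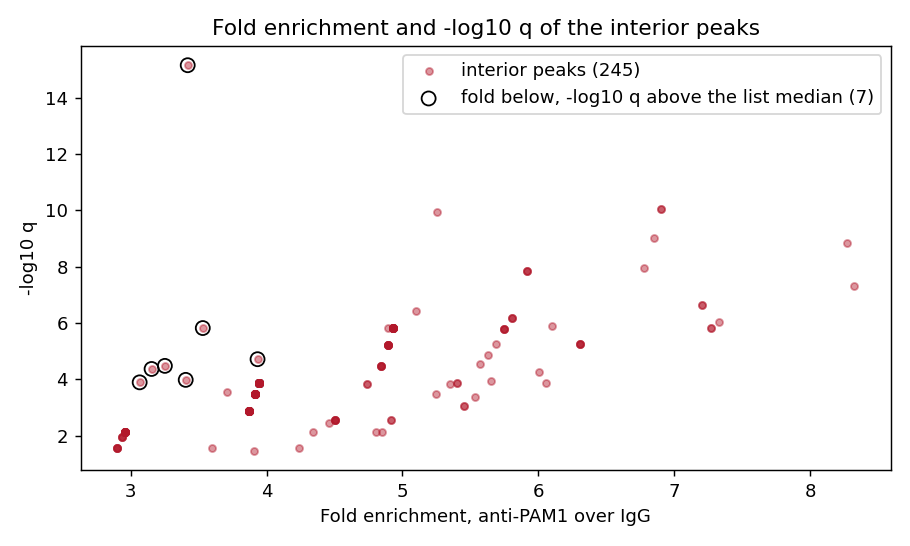
The caller's anti-PAM1 fold enrichment over its control level (horizontal axis) against −log10 q (vertical axis) for the 245 middle peaks, darker where points coincide. Circles mark the 7 peaks, all on chromosome 3, with a fold below 3.94 and a −log10 q above 3.88.

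Chromosome 3 also held the largest group of neighbouring peaks in the interior, with the most members among groups formed at 200000 bp. Between chr3:171277805 and chr3:171443802, a span of 165998 bp, 8 peaks were called, each within 200000 bp of the next, while the largest group in the outer parts had 4. This limit was chosen after the peaks were seen. The group opened with a run of 4 peaks in 3361 bp. In the run, chr3:171277805-171277976 had a fold of 3.41 and a −log10 q of 3.98, and chr3:171278743-171279121 had 3.53 and 5.82. The next, chr3:171279635-171279821, had 3.93 and 4.72, and chr3:171280665-171281165 had 3.07 and 3.90. A second run of 3 peaks in 2914 bp began 141187 bp farther on. It held chr3:171422353-171422570 (fold 3.15, −log10 q 4.37), chr3:171423181-171423359 (3.25 and 4.48) and chr3:171424694-171425266 (5.25 and 9.95). A last single peak, chr3:171443620-171443802, stood at 4.93 and 5.82.

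All 8 peaks of the group were wider than the smallest width of 170 bp, at 172 to 573 bp. The intervals above count each peak separately, also the 6 of the 7 low-fold peaks that lie in this group, so they are too narrow where peaks share a locus.

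**Figure D5:**
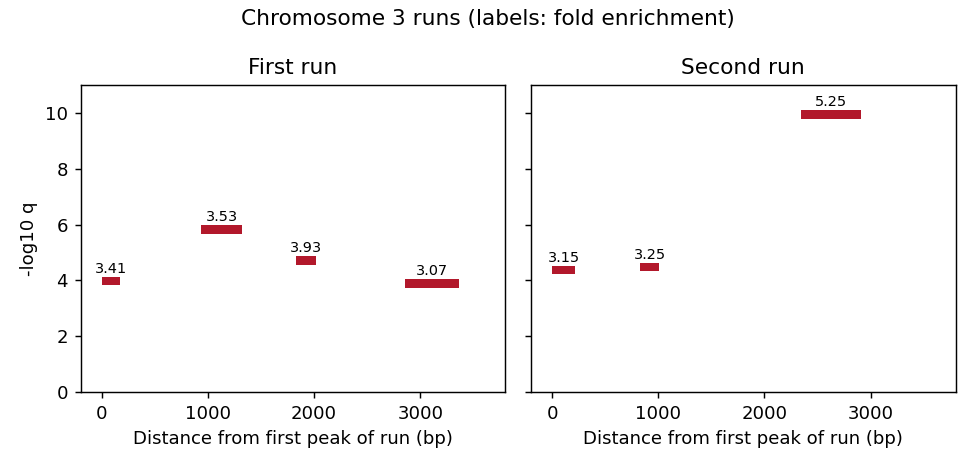
The 2 runs of peaks on chromosome 3: each bar is a peak, drawn to scale by distance from the first peak of its run in bp, at the height of its −log10 q, with its fold enrichment as the label. The first run holds 4 peaks in 3361 bp and the second 3 peaks in 2914 bp, and the peak with a −log10 q of 9.95 closes the second.

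Over the whole interior, peaks close together were uncommon. In all, 20 middle peaks (8.16%, 5.06% to 12.3%) and 37 outer peaks (8.10%, 5.76% to 10.99%) lay within 5000 bp of another peak, which are nearly equal shares. Without chromosome 3 the number of such middle peaks was 8. The middle peaks formed 5 pairs and 3 runs of at least 3, and the outer peaks 17 pairs and 1 run, a difference that was not tested. All 10 middle peaks in such runs were on chromosome 3, as were 12 of the 20. Besides the runs above, the third covered 3678 bp and held chr3:100234322-100234491 (fold 3.94), chr3:100236768-100236937 (3.87) and chr3:100237810-100237999 (4.84). That run stood at the edge of the chromosome's longest gap of 15.8 Mb. The pairs lay on chromosome 1 (span 1693 bp), chromosome 3 (2018 bp), chromosome 6 (4045 bp) and chromosome 8 (954 and 2475 bp). Within 4 of the 5 pairs both peaks had the same fold enrichment, either 3.87 or 3.94.

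Peak widths in the interior and in the outer parts had overlapping intervals at both widths compared. The smallest width, 170 bp, was that of 157 middle peaks (64.1%, 57.7% to 70.1%) and 292 outer peaks (63.9%, 59.3% to 68.3%). At least 300 bp were covered by 18 middle peaks (7.35%, 4.41% to 11.4%) and 27 outer peaks (5.91%, 3.93% to 8.48%). The widest middle peaks all lay on chromosome 3. They were chr3:171424694-171425266 at 573 bp, chr3:66379069-66379631 at 563 bp, chr3:171280665-171281165 at 501 bp, chr3:60681608-60681999 at 392 bp and chr3:171278743-171279121 at 379 bp. The widest outer peak measured 459 bp. Wide peaks were not all strong ones: 8 of the 18 wide middle peaks carried 1 of the 5 commonest combinations of values, and Spearman's rho of width with −log10 q was 0.36 over the 245 peaks. Over the outer peaks that rho was 0.45. The summit lay between 0.25 and 0.75 of the peak's width for 188 middle peaks (76.7%, 70.9% to 81.9%) and 361 outer peaks (79.0%, 74.97% to 82.6%).

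At the limits of the rule, peaks just inside and just outside were placed apart by position alone. The 5 nearest inside were chr2:183146029-183146198 (fold 2.96), chr1:229638504-229638673 (3.94), chr3:176202093-176202262 (5.25), chr8:45790177-45790346 (3.94) and chr4:184370406-184370575 (3.94), at 0.253 or at 0.746 to 0.749 of chromosome length. The 5 nearest outside were chr5:168254768-168255019 (fold 3.57), chr4:61380613-61380782 (3.91), chr10:113483834-113484006 (7.27), chr3:177202153-177202330 (8.44) and chr7:137377830-137378001 (5.55), at 0.249 or at 0.751 to 0.753.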

How the data were processed

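The only measurements used were those of the deposited peak list, which combines 3 anti-PAM1 and 2 IgG samples. Per the submitters' processing notes, the tools included MACS2 and Bowtie2 2.4.5, with no role stated. The list's name carries the tags q20 and fdr05, and the peak names in it carry q5. What these tags limit is not stated, and they were not reconciled. No source used here states the caller's other settings, whether it used strand or how it handled multi-mapping reads. Reads from near-identical repeats, common in the interior of maize chromosomes, may therefore be kept, shared out or dropped in an unknown way. For each peak the deposited file gives a fold enrichment (a ratio), −log10 p and −log10 q values, a summit and a score, which in 711 of 711 peaks is the −log10 q value times 10 without its decimals. Contig names are those of B73 v4. Positions are given on that assembly, counted from 1.

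Peaks were placed by midpoint over chromosome length. Neighbour distances run from the end of a peak to the start of the next, and longest gaps were taken over all chromosomal peaks. Densities carry exact Poisson intervals, shares exact Clopper-Pearson intervals, and medians order-statistic intervals, at 95%. Placement was tested on simulated data. Python 3.11.15, numpy 2.4.6, pandas 2.3.3, scipy 1.17.1 and matplotlib 3.10.9 were used. Peaks named in the text are the 10 with the highest −log10 q, the 5 with the highest fold, the 5 widest, the strongest on each chromosome, runs of 3 or more within 5000 bp, the neighbours farthest apart and the 5 nearest each side of the limits. Others were chosen after their values were seen. The position rule and these choices were made with earlier results of these data known. The RNA-seq tables carry gene identifiers without positions and were not joined to peaks, so the planned test of genes under peaks was not run. No sequence of B73 v4 was used here.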

Additional observations from a re-analysis of the deposited data

How the results depend on the processing

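The ratio of peak density, middle over outer, stayed below 1 and within its interval under all 17 alternatives (0.480 to 0.569). Counts of peaks were held to a factor of 1.5, and densities, shares, ratios and medians to the narrower 95% interval of the reported value, so 1 change in peak number can pass as a count and not as a density. By these limits, 121 of 139 alternative values stayed, 18 moved and 0 reversed. Many of them could hardly move. Leaving out a chromosome kept 197 to 232 of the 245 peaks, and the medians sit on values shared by many peaks. With a −log10 q of at least 3, the interior held 0.168 peaks per Mb and 13 peaks within 5000 bp of another. With a fold of at least the list median, they held 156 peaks, 0.148 per Mb, at a median fold of 4.50, with 6 close together. Both limits keep fewer peaks by construction. Limits of 0.30 to 0.70 gave a share of 25.4% and 13 close peaks, and 0.20 to 0.80 gave 44.4%, since they cover less or more length. Counting peaks within 5000 bp as 1 left 0 close by construction. Without the commonest combination there were 0.163 peaks per Mb and 13 close peaks, and the medians were 3.91 for fold, 3.48 for −log10 q and 171 bp for width. Close peaks numbered 10 at 1000 bp and 39 at 200000 bp. Without chromosome 3 they numbered 8. Leaving out chromosomes and the 200000 bp limit were chosen after seeing the data.

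No paired analysis was possible because the list combines all samples, so leaving out a sample was not done either. Alternatives planned for genes under peaks were not run. Depth per sample is unknown.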
